A study of Mus musculus with 21 samples.

Results

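The genes described are 10 members of the cyclic AMP (cAMP) and CREB signalling pathway, several of which act back on the pathway: *Crem*, *Creb1*, *Crtc1*, *Sik1*, *Pde4a*, *Pde4b*, *Pde4d*, *Pde10a*, *Adcy1* and *Adcy8*. They were chosen by symbol, with earlier results of these data known, as were the lists of other genes below. All 10 were found among the 24984 genes of a whole-gene count table of nascent RNA. The assay was BrU-seq: bromouridine fed to living cells enters newly transcribed RNA, and only that fraction is captured for sequencing. The cells were primary cultures of CD1 mouse cortex at day 17 in vitro, so neurons and glia were measured together. Cultures received DMSO, the solvent, or 25 µM MM401, a peptidomimetic that blocks the binding of the histone methyltransferase MLL1 to its partner WDR5, for 30 min. They then received 40 µM bicuculline, which blocks GABA-A receptors and raises network activity, or water as its control, and 2 mM bromouridine was present during the last 30 min. The 7 groups were DMSO with water for 4 h, DMSO with bicuculline for 1 h, DMSO with bicuculline for 4 h, MM401 with water for 1 h, MM401 with water for 4 h, MM401 with bicuculline for 1 h and MM401 with bicuculline for 4 h. A DMSO group with water for 1 h was not analysed here, so the DMSO response at 1 h was taken against water of 4 h, and treatment and duration differ together in that comparison. Each group had 3 libraries, from cultures of mixed sex, except that replicate 3 of MM401 with water for 4 h was left out for its very low total.

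CREB is a transcription factor that, once phosphorylated in response to cAMP or calcium, binds cAMP response elements and recruits coactivators such as the CRTC proteins. In neurons synaptic activity and calcium entry switch on CREB target genes, and some targets feed back on the pathway: a short repressor made from *Crem* competes with CREB, the kinase SIK1 keeps CRTC proteins out of the nucleus, and phosphodiesterases break cAMP down. Calcium-stimulated adenylyl cyclases, among them those encoded by *Adcy1* and *Adcy8*, make cAMP when calcium enters.

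The 20 libraries held between 49886348 and 87939384 counts, with a median of 62996146, while the library left out held 316741 counts, 0.503% of that median. Of the 24984 genes, 16959 passed the filter on low counts and were tested, all 10 pathway genes among them, and the lowest count of any of the 10 in any of the 20 libraries was 529. Levels are given as CPM, the usual rate of counts per library size, after scaling, and a gene was called when its adjusted p-value in edgeR's quasi-likelihood test was under 0.05. Markers of neurons summed to between 3380 and 5490 CPM per library, those of astrocytes to between 414 and 846, those of oligodendrocytes to between 126 and 172, those of microglia to between 21.1 and 36.1 and those of endothelium to between 1.44 and 3.01, so RNA of glia was present in every library. Each value is a level in the whole culture, and a change in how many cells of a type are present cannot be told apart from a change in RNA made per cell.

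In DMSO cultures bicuculline was followed by higher nascent RNA of most of the 10 genes. Against water, 7 of the 10 were called higher at 1 h, where 20% of all tested genes were, and 2 were called lower, where 24.5% were. At 4 h 8 were called higher, against 23.7% of all genes, and 2 lower, against 25.5%. Long genes were called higher more often: 42.5% and 50% at 1 h and 4 h from 100 to 300 kb, and 49.3% and 50.6% over 300 kb. *Adcy1* and *Adcy8* are in the former class and *Pde4b*, *Pde4d* and *Pde10a* in the latter. With libraries scaled by their plain totals 7 and 6 of the 10 were called higher, beside 1836 and 1820 of all 16959 genes. The median log2 fold change of the 10 genes was 0.50 at 1 h and 0.66 at 4 h, and that of all tested genes was -0.04 and -0.02. *Sik1* and *Crem* had the largest changes of the 10 at both times, the 4 phosphodiesterase genes and *Adcy8* rose at both, *Crtc1* fell at both, and *Adcy1* fell at 4 h. Markers of other cell types moved as well: astrocyte markers summed to between 443 and 666 CPM with water, 717 and 823 with bicuculline for 1 h and 577 and 656 for 4 h, with 2 of 5 called higher and 1 lower at 1 h and 0 called at 4 h. Neuron markers summed to between 3380 and 4370 CPM with water, 4370 and 4870 at 1 h and 5130 and 5490 at 4 h, with 3 of 7 called higher and 2 lower at 1 h, and 4 and 2 at 4 h. Oligodendrocyte markers summed to between 126 and 142, 149 and 163, and 159 and 172 CPM in the same order, with 2 of 5 called higher at 1 h and 3 at 4 h. Microglia markers summed to between 23.4 and 27.8, 21.1 and 28.2, and 28.3 and 33.1 CPM, with 0 of 4 called at 1 h and 1 called higher at 4 h. Their part in the changes of the 10 genes was not tested.

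**Figure D1:**
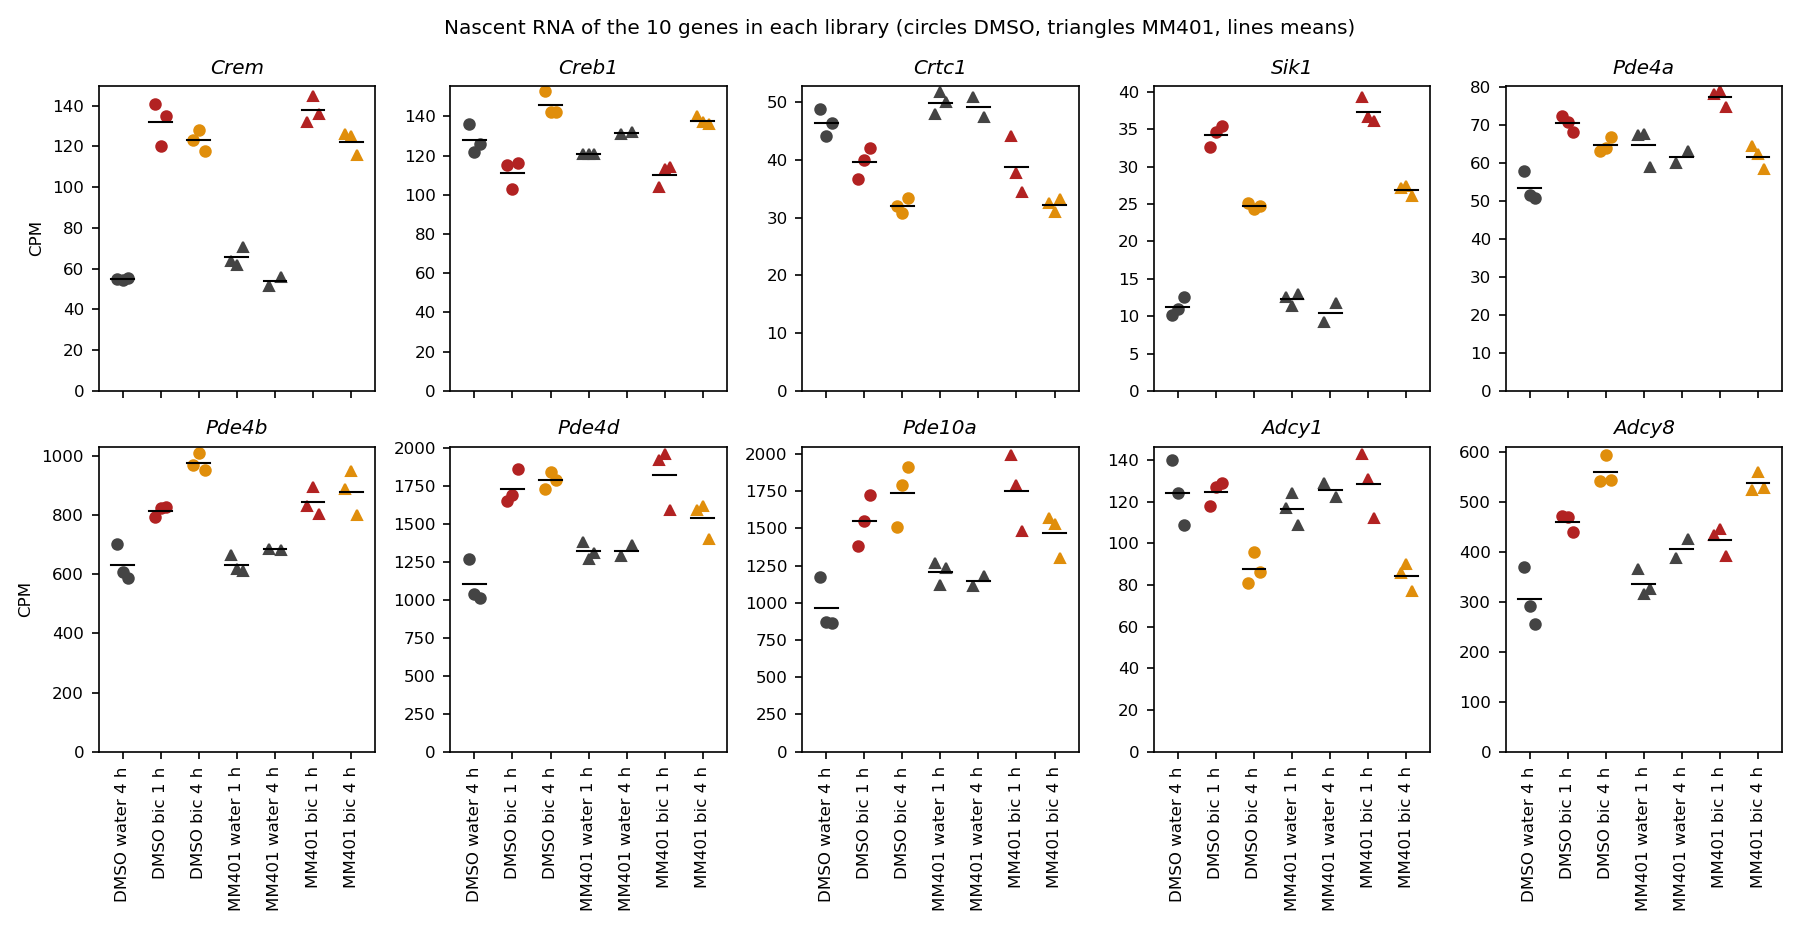
Nascent RNA of the 10 genes in each of the 20 libraries, in CPM (vertical axes from 0), by group along the horizontal axes, with circles for DMSO, triangles for MM401 and lines for group means. *Crem* stands between 116 and 145 CPM in all 12 bicuculline libraries and between 51.7 and 70.8 in all 8 water libraries.

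*Crem* (chr18:3266353-3337589, minus strand, build mm10 here and below) encodes activators and repressors of the CREB family, and a repressor form, ICER, starts at an internal promoter. With water its levels were 54.8, 54.4 and 55.4 CPM in the 3 DMSO libraries, with bicuculline for 1 h they were 141, 120 and 135, and with bicuculline for 4 h they were 123, 128 and 118. All 6 bicuculline libraries thus lay above all 3 water libraries. The log2 fold change was 1.26 (SE 0.065, adjusted p = 9.51e-13) at 1 h and 1.17 (SE 0.064, adjusted p = 4.12e-12) at 4 h, a 2.40-fold and a 2.24-fold level. Whole-gene counts do not separate ICER from the longer forms. The predicted gene *Gm6225* overlaps *Crem* on the other strand with at most 1821 counts in a library, and reads shared by the 2 genes could not be separated.

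*Sik1* (chr17:31844247-31855804, minus strand) encodes the salt-inducible kinase that phosphorylates CRTC coactivators. It stood at 10.1, 11 and 12.6 CPM with water, at 32.7, 34.6 and 35.5 with bicuculline for 1 h, and at 25.1, 24.4 and 24.7 with bicuculline for 4 h. The 3 groups did not overlap, and the 1 h group was the highest. Its log2 fold change over water was 1.61 (SE 0.084, adjusted p = 1.25e-12) at 1 h and 1.14 (SE 0.083, adjusted p = 2.69e-10) at 4 h. *Sik1* was the shortest of the 10 genes, at 11.6 kb.

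*Creb1* (chr1:64532803-64604548, plus strand) encodes CREB itself, and its changes were small. The levels were 136, 122 and 126 CPM with water, 115, 103 and 116 with bicuculline for 1 h, and 153, 142 and 142 with bicuculline for 4 h. The 1 h libraries were the lowest and the 4 h libraries the highest, without overlap with water. At 1 h the log2 fold change was -0.20 (SE 0.056, adjusted p = 0.00540), not called when only the 2 groups compared were fitted (-0.17, adjusted p = 0.117). At 4 h it was 0.19 (SE 0.056, adjusted p = 0.00848), a rise that was not called without replicate 1 of DMSO with bicuculline for 4 h (0.15, adjusted p = 0.0546) or without replicate 2 (0.13, adjusted p = 0.112) or 3 (0.15, adjusted p = 0.0730) of DMSO with water, and that turned to -0.09 (adjusted p = 0.216) when libraries were scaled by their plain totals. It was not called either with only the groups compared (0.16, adjusted p = 0.0803) or with an offset for gene length (0.05, adjusted p = 0.429).

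*Crtc1* (chr8:70382357-70439573, minus strand) encodes the CREB coactivator most abundant in brain, and it was the member that fell at both times. Its levels were 48.9, 44.1 and 46.4 CPM with water, 36.7, 40.1 and 42.1 with bicuculline for 1 h, and 32.1, 30.8 and 33.4 with bicuculline for 4 h. The 3 groups did not overlap. The log2 fold changes were -0.23 (SE 0.073, adjusted p = 0.0139) at 1 h and -0.53 (SE 0.074, adjusted p = 3.15e-06) at 4 h. The 1 h call was lost without replicate 1 of DMSO with bicuculline for 1 h (-0.18, adjusted p = 0.0829) or without replicate 1 of DMSO with water (-0.19, adjusted p = 0.0532), in DESeq2 (-0.19, adjusted p = 0.0514), and with only the groups compared (-0.20, adjusted p = 0.0566).

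**Figure D2:**
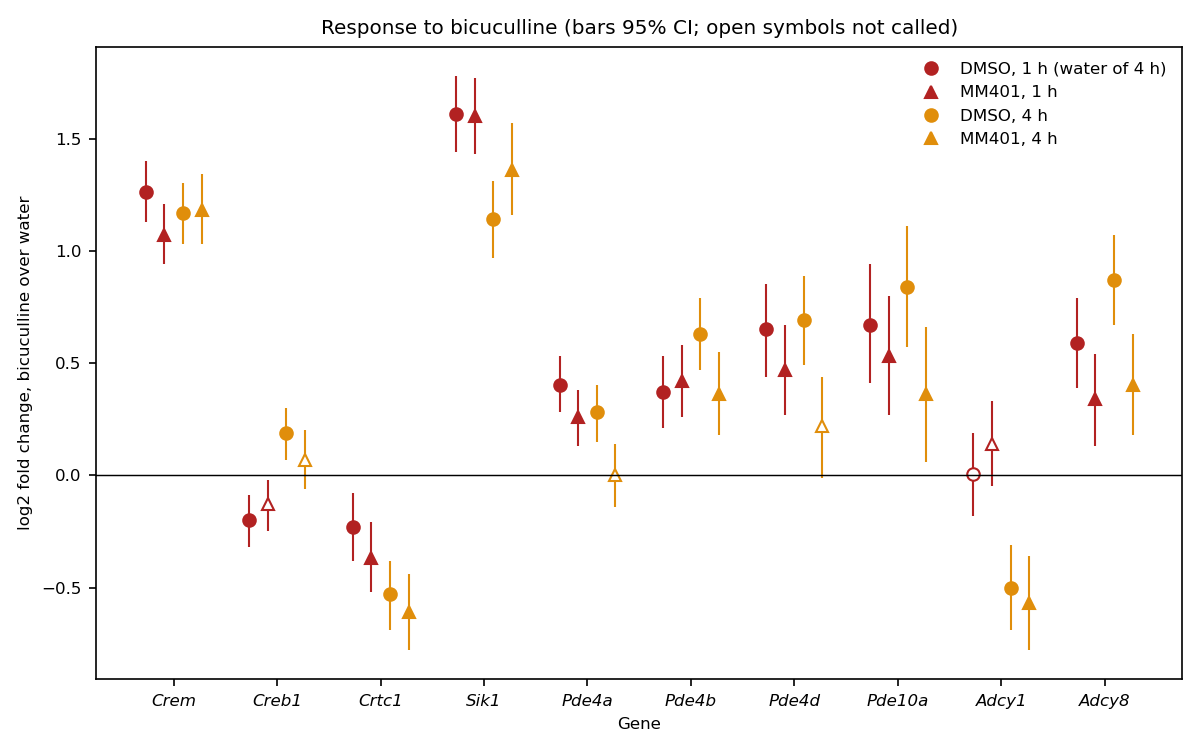
Log2 fold change of each gene, bicuculline over water (vertical axis), in the 4 pairs of groups, with bars for 95% confidence intervals, filled symbols for genes called and open ones for genes not called. *Sik1* and *Crem* lie between 1.07 and 1.61 in all 4 comparisons, *Crtc1* is below 0 in all 4, and *Creb1*, above 0 at 4 h here, falls to -0.09 under DMSO and -0.0057 under MM401 when libraries are scaled by their plain totals.

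The phosphodiesterase genes *Pde4a*, *Pde4b* and *Pde4d* encode cAMP-specific enzymes of the family inhibited by rolipram, and *Pde10a* encodes an enzyme that breaks down cAMP and cyclic GMP and is best known from striatal spiny neurons. All 4 were called higher with bicuculline at both times in DMSO cultures, where 20% of all tested genes were at 1 h and 23.7% at 4 h. Of genes over 300 kb, as *Pde4b*, *Pde4d* and *Pde10a* are, 49.3% and 50.6% were. Start sites inside the table's gene spans are known for these genes, and the windows from 250 bases before to 50 bases after the RefSeq start sites (build GRCm38.p6) were searched for the cAMP response element TGACGTCA and its half-site TGACG, on both strands. The half-site is contained in the full element. RefSeq windows were at hand for 7 of the 10 genes, 13 windows in all, from *Creb1*, *Crtc1*, *Pde4a*, *Pde4b*, *Pde4d*, *Pde10a* and *Adcy1*. The only *Pde4d* window lay at the start of its span, so start sites inside that span were not searched. No start site of *Crem*, *Sik1* or *Adcy8* was searched. The full element was in 0 of the 13 windows and in 1.79% of all 32851 windows, and the half-site was in 2 of the 13, against 20.8% of all windows. The 250 bases before those 2 start sites are printed because they are the only windows of these genes with the half-site, which is in capitals and reads TGACG on the opposite strand. They lie at chr9:21183851-21184100 and at chr4:102421305-102421554, both on the plus strand, 18.4 kb into the *Pde4a* span and 167 kb into the *Pde4b* span, with the half-site starting 50 and 34 bases before the start site.
Pde4a: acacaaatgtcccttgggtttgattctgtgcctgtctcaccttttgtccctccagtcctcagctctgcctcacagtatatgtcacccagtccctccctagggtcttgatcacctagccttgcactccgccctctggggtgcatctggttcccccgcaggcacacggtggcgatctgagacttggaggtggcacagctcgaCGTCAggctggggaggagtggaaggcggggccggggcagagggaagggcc
Pde4b: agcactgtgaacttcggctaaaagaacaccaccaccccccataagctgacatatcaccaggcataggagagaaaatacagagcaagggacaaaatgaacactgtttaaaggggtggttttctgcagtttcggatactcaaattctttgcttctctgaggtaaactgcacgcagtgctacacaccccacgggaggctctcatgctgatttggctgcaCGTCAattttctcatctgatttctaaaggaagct

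*Pde4a* (chr9:21165713-21213248, plus strand) had the smallest span of the 4, 47.5 kb, and the lowest CPM. It stood at 57.9, 51.4 and 50.7 CPM with water, at 72.4, 70.7 and 68.1 with bicuculline for 1 h, and at 63.1, 63.8 and 66.8 with bicuculline for 4 h. Both bicuculline groups lay above water, the 1 h group highest. Against water the log2 fold change was 0.40 (SE 0.061, adjusted p = 1.63e-05) at 1 h and 0.28 (SE 0.061, adjusted p = 0.000715) at 4 h, and the latter was 0.0058 (adjusted p = 0.942) when libraries were scaled by their plain totals.

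*Pde4b* (chr4:102254741-102607262, plus strand, 353 kb) encodes another cAMP-specific enzyme of the PDE4 family. It stood at 701, 607 and 589 CPM with water, at 794, 824 and 828 with bicuculline for 1 h, and at 971, 1010 and 952 with bicuculline for 4 h. The groups did not overlap and the 4 h group was highest. Bicuculline libraries were higher by a log2 fold change of 0.37 (SE 0.078, adjusted p = 0.000573) at 1 h and 0.63 (SE 0.078, adjusted p = 7.55e-07) at 4 h. With the low-count library included as well, the 1 h change was not called (0.39, adjusted p = 0.0823).

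*Pde4d* (chr13:108654176-109955969, plus strand) spans 1300 kb and is the longest of the 10. Its levels were 1270, 1040 and 1010 CPM with water, 1650, 1690 and 1860 with bicuculline for 1 h, and 1730, 1840 and 1790 with bicuculline for 4 h. Both bicuculline groups lay above water and overlapped each other. The log2 fold change was 0.65 (SE 0.097, adjusted p = 1.41e-05) at 1 h and 0.69 (SE 0.097, adjusted p = 4.04e-06) at 4 h.

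*Pde10a* (chr17:8526800-8986648, plus strand, 460 kb) had the largest SE of the 10 in the fit over all libraries. It stood at 1170, 870 and 863 CPM with water, at 1380, 1550 and 1720 with bicuculline for 1 h, and at 1510, 1790 and 1910 with bicuculline for 4 h. The highest water library, replicate 1, was still below the lowest bicuculline library. The log2 fold change was 0.67 (SE 0.13, adjusted p = 0.000203) at 1 h and 0.84 (SE 0.13, adjusted p = 1.30e-05) at 4 h. Markers of striatal spiny neurons, with which *Pde10a* is usually associated, summed to between 135 and 147 CPM in DMSO with water, between 206 and 217 with bicuculline for 1 h and between 159 and 170 with bicuculline for 4 h, and none of the 8 was at 0. Of these 8 markers 4 were called higher and 3 lower at each time. Of all tested genes 20% were called higher and 24.5% lower at 1 h, and 23.7% and 25.5% at 4 h. On the log2 scale the 8 ran from -1.13 to 2.31 at 1 h and from -2.83 to 1.78 at 4 h. *Penk*, which encodes enkephalin, was the highest at 2.31 and 1.78. *Drd2*, the D2 dopamine receptor gene, was at -0.70 and -2.06 and was not the lowest. The part of these markers' cells in the *Pde10a* result was not tested.

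*Adcy8* (chr15:64699034-64922296, minus strand, 223 kb) and *Adcy1* (chr11:7063432-7178505, plus strand, 115 kb) encode the calcium-stimulated cyclases, and they went opposite ways at 4 h. *Adcy8* stood at 371, 293 and 256 CPM with water, at 473, 470 and 441 with bicuculline for 1 h, and at 543, 594 and 544 with bicuculline for 4 h. The 3 groups did not overlap, and the log2 fold change was 0.59 (SE 0.097, adjusted p = 4.06e-05) at 1 h and 0.87 (SE 0.097, adjusted p = 1.68e-07) at 4 h. *Adcy1* stood at 140, 124 and 109 CPM with water, at 118, 127 and 129 with bicuculline for 1 h, and at 81.2, 95.8 and 86.3 with bicuculline for 4 h. Its 1 h libraries fell within the range of water and its 4 h libraries lay below it. The log2 fold change of *Adcy1* was 0.0047 (95% confidence interval -0.18 to 0.19, adjusted p = 0.972) at 1 h, with -0.18 (adjusted p = 0.0334) under scaling by plain totals, and -0.50 (SE 0.091, adjusted p = 0.000104) at 4 h. *Ppia* is listed at 2 positions. The span from the outer end of the first to that of the last overlaps *Adcy1*, on the same strand. Whether either position itself overlaps *Adcy1* was not tested. *Ppia* had up to 4655 counts in a library, and any shared reads could not be separated.

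Levels can be set against each other only per length, as CPM per kb of gene span. With water in DMSO cultures *Pde10a* was highest at 2.11 ± 0.388 CPM per kb (SD, n = 3), followed by *Pde4b* at 1.79 ± 0.171, *Creb1* at 1.78 ± 0.0998 and *Adcy8* at 1.37 ± 0.262. *Pde4a* at 1.12 ± 0.0836 and *Adcy1* at 1.08 ± 0.132 lay in the middle, ahead of *Sik1* at 0.970 ± 0.108. *Pde4d* at 0.850 ± 0.108, *Crtc1* at 0.812 ± 0.0423 and *Crem* at 0.770 ± 0.00696 were lowest, and each neighbour in this order differed from the next by less than the sum of their SDs, except *Creb1* from *Adcy8*. With bicuculline for 1 h *Pde10a* was still first at 3.36 ± 0.371 CPM per kb, and *Sik1* stood at 2.97 ± 0.124.

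Bicuculline for 4 h was then compared with bicuculline for 1 h. In DMSO cultures 3 of the 10 genes were called higher at 4 h, against 19.1% of all tested genes, and 3 lower, against 15.2%. *Creb1* (0.39, SE 0.056, adjusted p = 1.06e-05), *Pde4b* (0.26, SE 0.078, adjusted p = 0.0116) and *Adcy8* (0.28, SE 0.097, adjusted p = 0.0279) were higher. *Adcy1* (-0.51, SE 0.091, adjusted p = 0.000158), *Sik1* (-0.47, SE 0.081, adjusted p = 8.25e-05) and *Crtc1* (-0.30, SE 0.074, adjusted p = 0.00246) were lower. *Crem* was not called, at -0.10 with a 95% confidence interval of -0.23 to 0.04, and its 2 groups overlapped. The *Adcy8* call was lost without replicate 2 (0.29, adjusted p = 0.0530) or 3 (0.21, adjusted p = 0.173) of DMSO with bicuculline for 1 h or replicate 2 of bicuculline for 4 h (0.24, adjusted p = 0.108), and the *Pde4b* call without replicate 3 of bicuculline for 1 h (0.23, adjusted p = 0.0573). Without that library *Pde4a* was called lower (-0.19, adjusted p = 0.0434), as it was with plain totals (-0.21, adjusted p = 0.00850) and with the length offset (-0.17, adjusted p = 0.0311). With all 21 libraries neither *Pde4b* (0.22, adjusted p = 0.404) nor *Adcy8* (0.24, adjusted p = 0.410) was called, and with RLE size factors *Adcy8* was not (0.26, adjusted p = 0.0530). Cell type markers moved between these groups too. Of 7 neuron markers 3 were called higher and 1 lower, of 5 astrocyte markers 1 and 2. Of 8 striatal spiny neuron markers 1 was called higher and 4 lower. Of oligodendrocyte markers 0 of 5 were called, and of microglia markers 1 of 4 was called higher. Their part in the result was not tested.

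In MM401 cultures 2 genes were called higher at 4 h than at 1 h of bicuculline, against 17.5% of all genes, and 5 lower, against 16.0%. *Creb1* (0.32, SE 0.056, adjusted p = 0.000107) and *Adcy8* (0.34, SE 0.097, adjusted p = 0.00836) were higher. *Adcy1* (-0.61, SE 0.091, adjusted p = 2.37e-05), *Sik1* (-0.47, SE 0.081, adjusted p = 8.67e-05), *Pde4a* (-0.32, SE 0.061, adjusted p = 0.000249), *Crtc1* (-0.26, SE 0.074, adjusted p = 0.00795) and *Crem* (-0.17, SE 0.063, adjusted p = 0.0394) were lower. Single libraries decided several of these calls: *Crem* was not called without replicate 2 of bicuculline for 1 h or without replicate 2 or 3 of bicuculline for 4 h (-0.13, -0.19 and -0.14), *Crtc1* not without replicate 1 of bicuculline for 1 h (-0.16), and *Adcy8* not without replicate 3 of bicuculline for 1 h (0.26). Without that last library *Pde4d* (-0.37, adjusted p = 0.00672) and *Pde10a* (-0.39, adjusted p = 0.0256), at -0.25 each in the full set, were called lower, and *Pde4d* was also called lower in DESeq2 (-0.27, adjusted p = 0.0199) and under plain totals (-0.17, adjusted p = 0.0224). Under plain totals *Crem* (-0.10, adjusted p = 0.311) and *Crtc1* (-0.18, adjusted p = 0.0776) were not called, and with the length offset *Crem* was not (-0.15, adjusted p = 0.0571) and *Pde4d* turned to 0.09. *Pde4b*, at 0.06 and not called, was called higher at 4 h under plain totals (0.14, adjusted p = 0.0223) and with the length offset (0.25, adjusted p = 0.00012). Here 2 of 7 neuron markers were called higher and 2 lower, and of 5 astrocyte markers 1 and 2. Of 8 striatal spiny neuron markers 1 was called higher and 4 lower. Of oligodendrocyte markers 1 of 5 was called higher, and of microglia markers 2 of 4. The part of these markers' cells was not tested.

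Under MM401 bicuculline was again followed by higher *Crem* and *Sik1*, while the responses of the phosphodiesterase genes and *Adcy8* at 4 h were smaller in value than under DMSO. At 1 h, against MM401 with water of the same duration, 7 of the 10 genes were called higher, against 18.1% of all genes, and 1 lower, against 21.8%. At 4 h 5 were called higher, against 23.0%, and 2 lower, against 21.7%. The median log2 fold change of the 10 was 0.38 at 1 h and 0.29 at 4 h, beside 0 and 0.02 over all tested genes. The MM401 water group of 4 h holds 2 libraries. Astrocyte markers summed to between 517 and 696 CPM with water and 777 and 846 with bicuculline at 1 h, and to between 414 and 508 and 569 and 647 at 4 h, with 3 of 5 called higher at each time. Of neuron markers 3 of 7 were called higher and 1 lower at 1 h, and 3 and 2 at 4 h. Of oligodendrocyte markers 2 of 5 were called higher at each time, and of microglia markers 0 of 4 at 1 h and 2 of 4 at 4 h. The part of these markers' cells in the result was not tested.

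*Crem* stood at 63.8, 62.0 and 70.8 CPM in MM401 with water for 1 h and at 132, 145 and 136 with bicuculline for 1 h. At 4 h it stood at 51.7 and 56.0 with water and at 126, 125 and 116 with bicuculline. Bicuculline libraries lay above water at both times, with log2 fold changes of 1.07 (SE 0.064, adjusted p = 1.34e-11) and 1.18 (SE 0.074, adjusted p = 6.72e-11). *Sik1* stood at 12.5, 11.4 and 13.0 CPM with water and 39.3, 36.6 and 36.1 with bicuculline at 1 h, and at 9.17 and 11.7 with water and 27.1, 27.4 and 26.1 with bicuculline at 4 h. The bicuculline libraries lay above water at both times, at 1.60 (SE 0.084, adjusted p = 1.52e-12) and 1.36 (SE 0.097, adjusted p = 4.95e-10). *Crtc1*, the coactivator, fell by 0.37 (SE 0.073, adjusted p = 0.000379) at 1 h and by 0.61 (SE 0.081, adjusted p = 3.03e-06) at 4 h on the log2 scale. *Creb1* was called at neither time, with -0.13 (95% confidence interval -0.25 to -0.02, adjusted p = 0.0615) and 0.07 (-0.06 to 0.20, adjusted p = 0.390), and with -0.0057 at 4 h under scaling by plain totals. At 1 h it was called lower with plain totals (-0.35, adjusted p = 4.54e-05) and with the length offset (-0.18, adjusted p = 0.00808).

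*Pde4b* stood between 612 and 666 CPM with water and between 803 and 896 with bicuculline at 1 h under MM401, and at 687 and 682 against 889, 950 and 801 at 4 h. It rose at both times, by 0.42 (SE 0.078, adjusted p = 0.000186) and 0.36 (SE 0.087, adjusted p = 0.00184). *Pde4a* rose at 1 h (0.26, SE 0.061, adjusted p = 0.00178), though not when scaled by plain totals (0.04, adjusted p = 0.589), and at 4 h its 3 bicuculline libraries at 64.3, 62.2 and 58.4 CPM overlapped the 2 water libraries at 59.9 and 63.2. The 4 h value was 0.0023 (95% confidence interval -0.14 to 0.14, adjusted p = 0.982), and its sign turned under several alternatives. *Pde4d* stood at 1380, 1270 and 1310 CPM with water and 1920, 1960 and 1590 with bicuculline at 1 h, and at 1290 and 1360 with water and 1590, 1620 and 1400 with bicuculline at 4 h. It rose at 1 h (0.47, SE 0.097, adjusted p = 0.000522), and at 4 h the groups did not overlap but the change was not called (0.22, 95% confidence interval -0.01 to 0.44, adjusted p = 0.109).

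*Pde10a* stood at 1270, 1120 and 1230 CPM with water and 1990, 1790 and 1480 with bicuculline at 1 h under MM401, and at 1110 and 1180 with water and 1570, 1530 and 1300 with bicuculline at 4 h. It was called at both times, at 0.53 (SE 0.13, adjusted p = 0.00197) and 0.36 (SE 0.14, adjusted p = 0.0493). The 4 h call lay at the threshold and was lost without replicate 1 (0.30) or 2 (0.32) of MM401 with bicuculline for 4 h and without replicate 1 (0.29) or 2 (0.37) of MM401 with water for 4 h, with adjusted p between 0.116 and 0.265. It was also lost with RLE size factors (0.35, adjusted p = 0.0658) and without the filter on low counts (0.35, adjusted p = 0.0575), and the 1 h call was lost with all 21 libraries (0.54, adjusted p = 0.0747). *Adcy8* stood at 367, 316 and 326 CPM with water and 434, 447 and 392 with bicuculline at 1 h, and at 388 and 426 with water and 525, 561 and 529 with bicuculline at 4 h. The bicuculline libraries were higher at both times, by 0.34 (SE 0.097, adjusted p = 0.00813) and 0.40 (SE 0.11, adjusted p = 0.00460). The former was not called under plain totals (0.12, adjusted p = 0.163) and the latter not without replicate 1 of MM401 with water for 4 h (0.32, adjusted p = 0.102). *Adcy1* was not called at 1 h (0.14, 95% confidence interval -0.05 to 0.33, adjusted p = 0.229), was called without replicate 3 of MM401 with bicuculline for 1 h (0.24, adjusted p = 0.0398), and fell at 4 h (-0.57, SE 0.10, adjusted p = 0.000102).

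MM401 and DMSO were next compared under the same treatment and duration, and in edgeR none of the 10 genes was called. With water for 4 h 0.0826% of all tested genes were called, with bicuculline for 1 h 0.00590% and with bicuculline for 4 h 0%, where DESeq2 called 7 genes. At an unadjusted p under 0.05 the 10 genes gave 3, 1 and 1, beside 2194, 540 and 1309 of all 16959 genes, and DESeq2 called 1, 0 and 0 of them. With bicuculline the genes at an unadjusted p under 0.05 were *Pde4a* at 1 h (0.13, SE 0.061) and *Pde4d* at 4 h (-0.22, SE 0.097). The gene called by DESeq2 was *Adcy8* with water, which stood at 388 and 426 CPM under MM401 and at 371, 293 and 256 under DMSO, all MM401 libraries above all DMSO libraries, at 0.41 (SE 0.11, adjusted p = 0.139 in edgeR). *Pde4d* (0.26, adjusted p = 0.316) and *Pde4a* (0.21, adjusted p = 0.215) with water did not overlap either. With 2 libraries against 3, groups can fail to overlap without a difference, and the share of all tested genes that did so was not counted. Replicate 1 of DMSO with water was the highest of its 3 libraries for 8 of the 10 genes, all but *Crem* and *Sik1*. Without it *Adcy8* (0.57, adjusted p = 0.00139), *Pde4d* (0.37, adjusted p = 0.0283) and *Pde4a* (0.27, adjusted p = 0.0208) were called higher under MM401, while over all tested genes the calls went from 14 to 1272, 751 of them higher. Astrocyte markers with water had a median of -0.39 (range -0.54 to -0.18) under MM401 against DMSO, 0 of 5 called and 3 at an unadjusted p under 0.05, and their part in the result was not tested.

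MM401 with water for 4 h was compared with MM401 with water for 1 h, the only pair of water groups that differ in duration alone. None of the 10 genes was called in edgeR, where 0.867% of all genes were, with 3 at an unadjusted p under 0.05, beside 1699 of all 16959 genes, and 0 in DESeq2. These 3 were *Crem* (-0.28, SE 0.072, adjusted p = 0.0680), *Sik1* (-0.24, SE 0.096, adjusted p = 0.380) and *Adcy8* (0.27, SE 0.11, adjusted p = 0.336). In edgeR *Crem* was called lower at 4 h with plain totals (-0.35, adjusted p = 0.0330) and with only the groups compared (-0.28, adjusted p = 0.0423), and *Sik1* was at -0.07 without replicate 1 and -0.41 without replicate 2 of MM401 with water for 4 h. The *Crem* libraries did not overlap, at 63.8, 62.0 and 70.8 CPM for 1 h and 51.7 and 56.0 for 4 h. The share of all tested genes without overlap was not counted here either.

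The difference between the MM401 and the DMSO response was tested as an interaction, the log2 response under MM401 minus that under DMSO, each against water of 4 h. None of the 10 genes was called in edgeR at 4 h or at 1 h, and of all tested genes 0% were called in each, with 2552 and 1326 at an unadjusted p under 0.05 and 436 and 5 called by DESeq2. At an unadjusted p under 0.05 there were 5 of the 10 at 4 h and 1 at 1 h. The 5 at 4 h were *Pde10a* (-0.48, SE 0.19), *Pde4d* (-0.47, SE 0.14), *Adcy8* (-0.47, SE 0.14), *Pde4a* (-0.27, SE 0.092) and *Pde4b* (-0.26, SE 0.12), with adjusted p between 0.229 and 0.298. *Crem* (0.02, 95% confidence interval -0.18 to 0.22) and *Sik1* (0.22, -0.04 to 0.48) gave values above 0, with *Crem* turning to -0.01 in DESeq2 and *Sik1* at 0.06 without replicate 1 and 0.40 without replicate 2 of MM401 with water for 4 h. DESeq2 called 3 of the 10 at 4 h, *Pde4d* (-0.50, adjusted p = 0.0301), *Pde10a* (-0.51, adjusted p = 0.0487) and *Adcy8* (-0.49, adjusted p = 0.0340), and 0 at 1 h. MM401 against DMSO at 4 h was 0.41 with water and -0.06 with bicuculline for *Adcy8*, and 0.21 and -0.07 for *Pde4a*. In the same order it was 0.24 and -0.24 for *Pde10a*, 0.26 and -0.22 for *Pde4d*, and 0.11 and -0.15 for *Pde4b*. For *Adcy8* and *Pde4a* the difference between MM401 and DMSO was thus larger with water than with bicuculline.

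The interaction at 4 h moved with 1 library and with gene length. Without replicate 1 of DMSO with water edgeR called all 5 genes, *Pde10a* at -0.65, *Adcy8* at -0.63, *Pde4d* at -0.58 and *Pde4a* and *Pde4b* at -0.34 each, with adjusted p between 0.00409 and 0.0405, and 1551 genes in all. With an offset for each library's trend on gene length *Adcy8* was at -0.28, *Pde4a* at -0.23, *Pde10a* at -0.22, *Pde4d* at -0.07 and *Pde4b* at -0.02, none of them called. At 1 h the interaction of *Adcy8* was -0.53 (SE 0.14, adjusted p = 0.395), it was -0.69 (adjusted p = 0.00847) without replicate 1 of DMSO with water, and it was -0.25 (adjusted p = 0.449) when MM401 with water for 1 h was the MM401 reference. In the 4 h interaction neuron markers had a median of -0.21 (-0.34 to 0.02) and astrocyte markers of 0.31 (0.15 to 0.58). At 1 h these medians were -0.04 (-0.32 to 0.02) and 0.50 (0.19 to 0.66). None of these markers was called, and their part in the result was not tested.

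**Figure D3:**
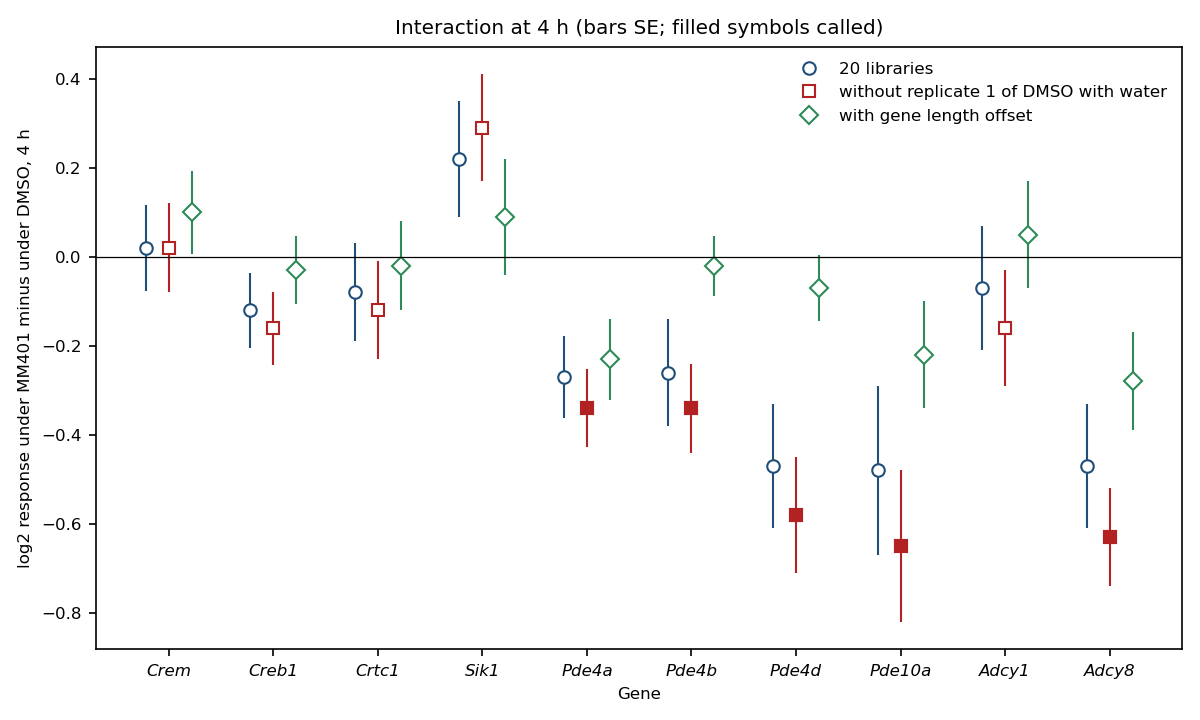
Difference of the 4 h bicuculline responses, MM401 minus DMSO (log2, vertical axis), for each gene in the 20 libraries, without replicate 1 of DMSO with water, and with the gene length offset, with bars for SE and filled symbols for genes called. None is called in the 20 libraries or with the offset, and 5 are without that library.

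The share of genes called went with gene length over the whole table. Of the 538 tested genes over 300 kb, 49.3% were called higher in DMSO at 1 h and 50.6% at 4 h, while of the 4481 genes under 10 kb 9.24% and 9.22% were. Under MM401 49.1% of genes over 300 kb and 12% of those under 10 kb were called higher at 1 h. Under MM401 at 4 h 17% of genes were called higher under 10 kb, 21.5% from 10 to 50 kb, 29.9% from 50 to 100 kb, 35.4% from 100 to 300 kb and 20.8% over 300 kb. The shares called lower there were 12.2%, 24.9%, 25.6%, 23.9% and 28.3%, and the medians of the classes lay between -0.05 and 0.09. *Pde4d*, *Pde10a* and *Pde4b* are in the class over 300 kb, and *Adcy8* and *Adcy1* in that from 100 to 300 kb, where 42.5% and 50% were called higher in DMSO at 1 h and 4 h. With the length offset the DMSO responses at 1 h were 0.42 for *Pde10a*, 0.39 for *Adcy8*, 0.32 for *Pde4d* and 0.12 for *Pde4b*, and at 4 h 0.59, 0.65, 0.39 and 0.38, all called. *Sik1* was at 1.78 and 1.30 and *Crem* at 1.17 and 1.03. Under MM401 the offset ended the call of *Adcy8* at 1 h (0.14, adjusted p = 0.150) and made one of *Pde4d* at 4 h (0.32, adjusted p = 7.68e-05). The part of gene length in the response of any single gene was not tested.

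**Figure D4:**
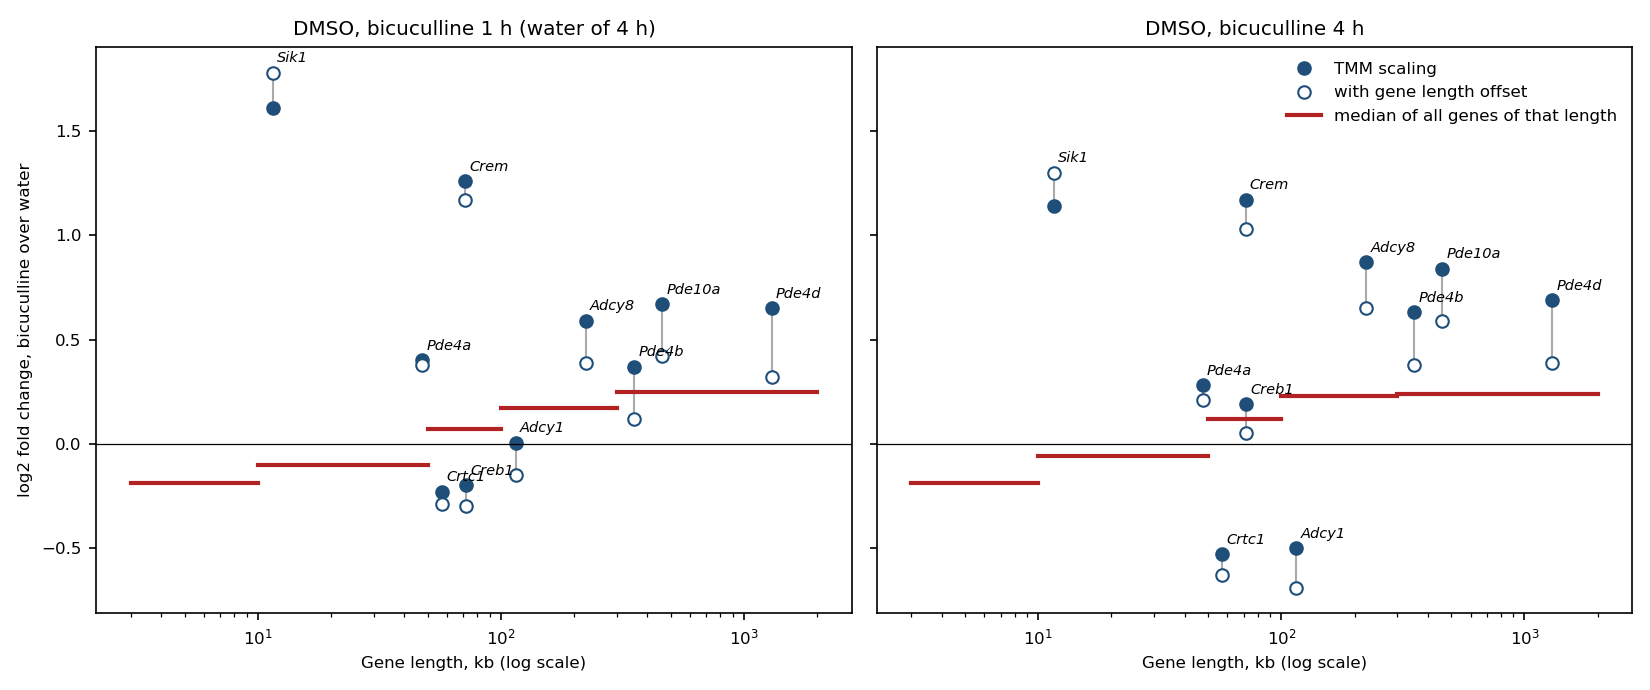
Log2 fold change of the 10 genes under DMSO (vertical axis) against gene length in kb (log axis), with filled points for the TMM-scaled fit, open points for the length offset and red lines for the median of all tested genes in each length class. The median rises from -0.19 under 10 kb to 0.25 over 300 kb at 1 h, and *Sik1* and *Crem* stand above it at both times.

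Of 39 other genes of the pathway, all tested, 17 were called higher and 6 lower in DMSO at 1 h, and 20 higher and 5 lower at 4 h. Under MM401 16 were higher and 6 lower at 1 h, and 14 higher and 9 lower at 4 h. Of all tested genes 20% were called higher and 24.5% lower in DMSO at 1 h, 23.7% and 25.5% at 4 h, 18.1% and 21.8% under MM401 at 1 h, and 23.0% and 21.7% at 4 h. *Sik2*, a kinase of the same family as *Sik1*, had the largest rise in each of the 4 comparisons, at 1.52 (SE 0.12), 1.72 (SE 0.12), 1.63 (SE 0.12) and 1.20 (SE 0.14) in that order, and *Sik3* rose by 0.70 (SE 0.081) under MM401 at 1 h. Of the 11 other phosphodiesterase genes 6 were called higher and 2 lower in DMSO at 1 h, and 7 and 1 at 4 h. *Pde1c*, which encodes a calcium-stimulated enzyme, rose by 1.47 (SE 0.076) at 4 h in DMSO and by 0.97 (SE 0.086) under MM401, *Pde8a* by 0.86 (SE 0.11) at 1 h in DMSO and *Pde7b* by 0.83 (SE 0.096) at 4 h under MM401. *Pde1b*, encoding another calcium-stimulated enzyme, was lower in all 4 comparisons, at -0.64, -0.64, -0.71 and -0.75, and *Pde2a* was at -0.27 in DMSO and -0.44 under MM401 at 1 h.

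Of the 6 other cyclase genes 1 was called higher and 0 lower in DMSO at 1 h, 0 and 3 at 4 h, and 0 and 4 under MM401 at 4 h, where over all tested genes 20% were higher and 24.5% lower, 23.7% and 25.5%, and 23.0% and 21.7%. *Adcy3* fell by 0.40 (SE 0.092) and *Adcy5* by 0.34 (SE 0.085) at 4 h in DMSO, and by 0.63 (SE 0.10) and 0.67 (SE 0.094) under MM401, the direction of *Adcy1* and not of *Adcy8*. Of 11 genes for protein kinase A subunits, inhibitors and anchors, 6 were called higher and 3 lower in DMSO at 1 h and 6 and 1 at 4 h. *Akap12*, an anchoring protein gene, rose by 1.22 (SE 0.081) at 1 h in DMSO, *Prkar2a*, a regulatory subunit gene, by 1.19 (SE 0.080) at 4 h, and *Prkacb*, a catalytic subunit gene, by 0.85 (SE 0.063) under MM401 at 1 h, while the inhibitor gene *Pkig* fell by 0.33 (SE 0.062) there. *Crtc2*, the relative of *Crtc1*, was at -0.39 (SE 0.094) at 1 h in DMSO. Of the 7 genes for CREB relatives, coactivators and SIKs 2 were called higher and 1 lower at 1 h in DMSO. At 4 h in DMSO these counts were 4 and 0, so *Crtc2* was not called lower there. Under MM401 they were 2 and 1 at 1 h and 3 and 2 at 4 h. Of 4 genes for cAMP-activated exchange factors and stimulatory G proteins 2 were called higher at 1 h and 3 at 4 h in DMSO, and none lower.

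Of 21 known CREB target genes 20 were called higher in DMSO at 1 h, with a median log2 fold change of 2.37, and 20 at 4 h, with a median of 1.77. Under MM401 21 were called higher at 1 h and 20 at 4 h, with medians of 2.29 and 1.93. Over all tested genes 20% and 23.7% were called higher in DMSO and 18.1% and 23.0% under MM401. *Crem* and *Sik1* lay below these medians at both times and under both pretreatments.

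**Figure D5:**
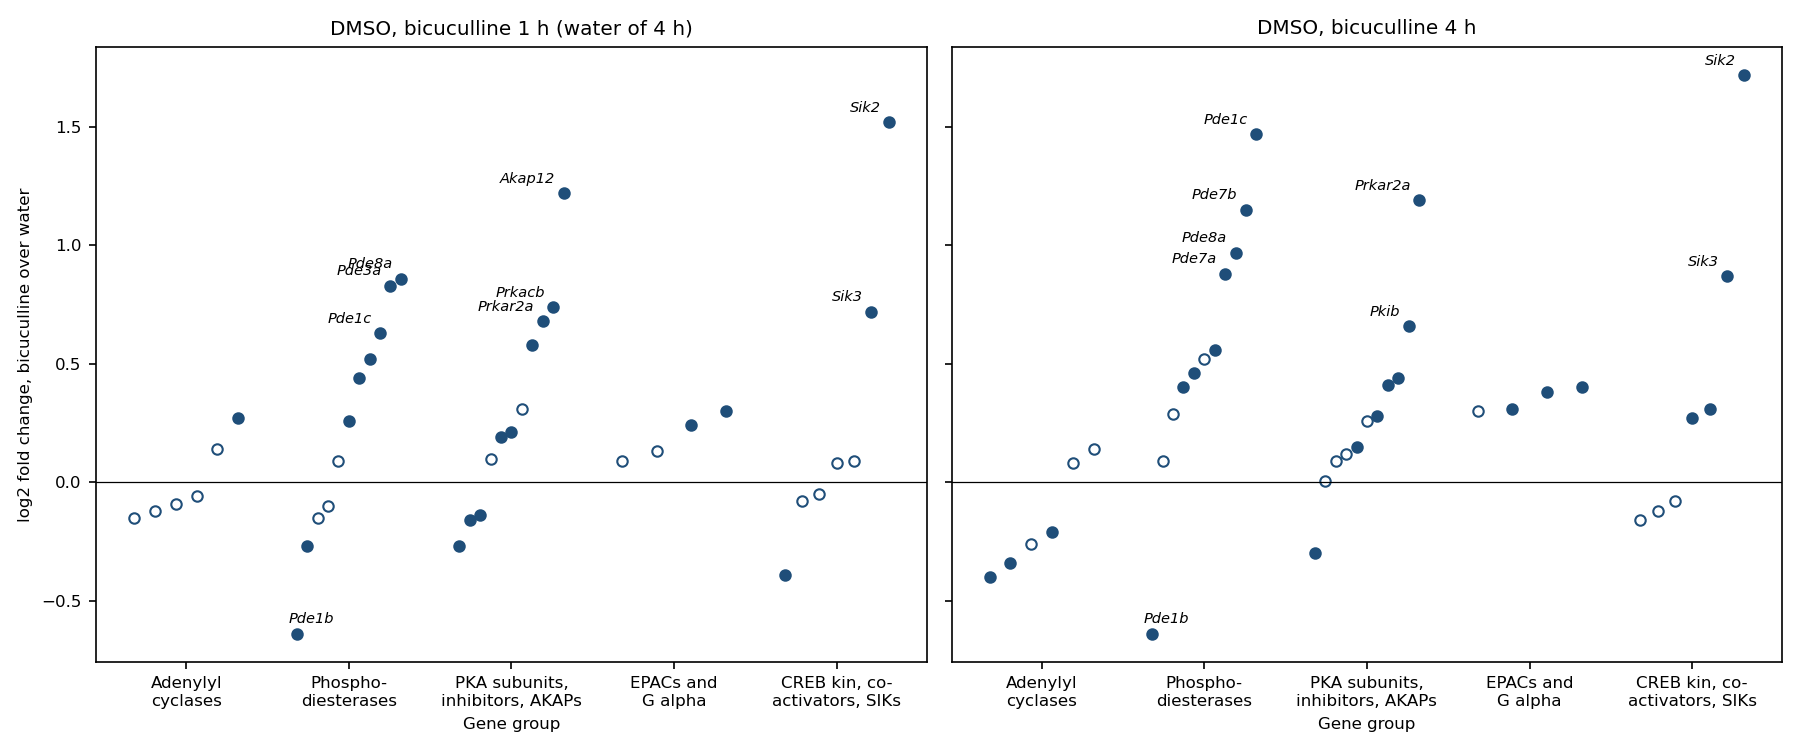
Log2 fold change (vertical axis) of the 39 other pathway genes under DMSO, by group along the horizontal axis, filled where called. *Sik2* is the highest at both times, at 1.52 and 1.72, and *Pde1b* the lowest, at -0.64.

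Over the 20 libraries, the log2 levels of *Crem* and *Sik1* had a Pearson correlation of 0.974, those of *Pde4d* and *Pde10a* of 0.973 and those of *Pde4b* and *Adcy8* of 0.927. *Crtc1* was at -0.864 with *Pde4b*, -0.806 with *Adcy8*, -0.797 with *Crem*, -0.704 with *Sik1*, -0.593 with *Pde4d*, -0.584 with *Pde10a*, -0.382 with *Creb1*, -0.222 with *Pde4a* and 0.735 with *Adcy1*, and *Creb1* and *Adcy1* were at -0.720. The tested genes most like *Crem* were *Ifrd1* and *Klf4*, each at 0.989, and those most like *Sik1* were *Klf4* at 0.994 and *Fosl2* at 0.993. *Pde4b* was most like *Clcn5* (0.988) and *Dlg1* (0.985), *Pde4d* most like *Dclk1* (0.985) and *Magi1* (0.981), and *Pde10a* most like *Pde4d* and then *Actr3b* (0.957). *Adcy8* was most like *Ptprk* (0.976) and *Klhl14* (0.971), *Adcy1* like *Dnah9* and *Cacna1d* (0.970 each), *Creb1* like *Lcor* (0.976) and *Rsbn1* (0.972), *Crtc1* like *Tango2* (0.975) and *Fbxw4* (0.971), and *Pde4a* like *Lhfpl3* (0.945) and *Dscam* (0.933). These correlations describe 20 libraries that share 7 groups, and long genes share the trend on length.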

How the data were processed

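The authors deposited a table of unnormalised read counts for each gene. Per the file headers they came from featureCounts over the whole span of each gene, so intronic reads counted, and the build was mm10, per the submitters' processing notes, which also name Bowtie2, UMI-tools, DESeq2 and deepTools. Strand use and annotation release are not given in the sources used here. The analysis used edgeR 4.0.16 (R 4.3.3). Low genes were removed with filterByExpr by group (minimum count 10, minimum total 15), libraries were scaled by TMM, and 1 robust quasi-likelihood model without a block was fitted to the 7 group means of 20 libraries. P-values were two-sided and adjusted by Benjamini-Hochberg over all 16959 genes tested, with a threshold of 0.05. SE is the absolute log2 fold change divided by the square root of F. DESeq2 1.42.0, other scalings, no filter, fewer or more libraries, a replicate block and a gene length offset were alternatives. The script was tested on simulated counts. The biological coefficient of variation was 8.77%. Replicates differed by more than counting noise (chi-square per degree of freedom 6.14 to 78.5 over 19 pairs). The series' design text calls the 3 replicates biological; it does not say whether they came from separate litters.

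The 10 genes and the gene lists were chosen with earlier results of these data known. Of the 39 other pathway genes, named are up to 3 per direction and bicuculline comparison with the largest fold change among those called without overlap of CPM between groups. Of the other genes, the 2 with the highest correlation to each of the 10 are named. *Drd2* and *Penk* were chosen after their values were seen.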

Additional observations from a re-analysis of the deposited data

Results flagged for a closer look

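The library left out, replicate 3 of MM401 with water for 4 h, held 789 counts over the 10 genes. In it *Pde4a* had 32 counts, 101 CPM of its plain total with a 95% Poisson interval of 69.1 to 143 that covers counting error only. This was above the range of 58.5 to 59.1 in DMSO with water for 4 h and above the 62.3 and 65.6 of the other MM401 water libraries of 4 h. The other 9 genes were not above the DMSO water range in that library. For 4 of them the whole interval lay below it: *Pde4b* at 407 CPM (340 to 484) against 681 to 715, *Pde4d* at 862 (763 to 970) against 1170 to 1290, *Pde10a* at 616 (532 to 708) against 990 to 1200 and *Adcy8* at 202 (156 to 258) against 296 to 378. *Sik1* had a count of 0, which allows up to 11.6 CPM.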

How the results depend on the processing

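The counts of called genes and of the 10 genes called, and each gene's response, were recomputed under each alternative. With DESeq2, MM401 against DMSO gave 162 genes and 1 of the 10 with water for 4 h, 14 genes with bicuculline for 1 h and 7 for 4 h. DESeq2 also gave 275 genes for MM401 water 4 h against 1 h, 436 genes and 3 of the 10 for the interaction at 4 h, and 5 genes for that at 1 h. *Pde4a* under MM401 at 4 h turned to -0.0068 and the *Crem* interaction at 4 h to -0.01 there, and with RLE size factors to -0.0067 and -0.01. With plain library sizes the median of all genes moved to -0.23, -0.30, -0.21 and -0.06 in the 4 responses to bicuculline, and the called genes that were higher went from 3396 of 7557 to 1836 of 8654, from 4014 of 8344 to 1820 of 9687, from 3070 of 6769 to 1276 of 7817 and from 3898 of 7572 to 2794 of 6932. For 4 h against 1 h of bicuculline they went from 3233 of 5805 to 2015 of 5146 (DMSO) and from 2974 of 5691 to 3603 of 5546 (MM401). Signs turned there for *Adcy1* at 1 h (-0.18 DMSO, -0.08 MM401), *Creb1* at 4 h (-0.09 DMSO, -0.0057 MM401), *Pde4a* under MM401 at 4 h (-0.07), *Pde4d* in DMSO 4 h against 1 h (-0.04) and the 4 h interactions of *Creb1* (0.08), *Crtc1* (0.12) and *Adcy1* (0.12), while MM401 against DMSO water gave 4 genes and MM401 water 4 h against 1 h gave 178 genes and 1 of the 10, *Crem* (-0.35). *Pde4a* under MM401 at 4 h was -0.00076 without the filter and -0.02 with only the groups compared, which gave 0 genes for MM401 against DMSO water, and 328 genes and 1 of the 10 (*Crem*, -0.28) for MM401 water 4 h against 1 h. With all 21 libraries 6 of the 10 and 5223 genes were called in DMSO at 1 h and 4 and 4599 under MM401 at 1 h, 3745 and 3646 genes for 4 h against 1 h of bicuculline (DMSO, MM401), 0 for MM401 against DMSO water and 19 for MM401 water 4 h against 1 h, with *Pde4a* under MM401 at 4 h at -0.04 and *Pde10a* in MM401 against DMSO water at -0.02. The calls lost with 21 libraries were *Creb1*, *Crtc1* and *Pde4b* in DMSO at 1 h, *Creb1* at 4 h, *Pde4b*, *Pde4d*, *Pde10a* and *Adcy8* under MM401 at 1 h, and for 4 h against 1 h *Pde4b* and *Adcy8* in DMSO and *Crem* and *Adcy8* under MM401. The length offset turned *Adcy1* at 1 h in DMSO (-0.15), *Pde4a* under MM401 at 4 h (-0.03), *Pde4d* in MM401 4 h against 1 h (0.09) and the *Adcy1* interaction at 4 h (0.05), and gave 235 genes for MM401 water 4 h against 1 h. MM401 water of 1 h as reference gave 233 genes for the interaction at 1 h. The cause was not tested.

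Leaving out 1 library at a time gave 8 to 9 of the 10 and 6241 to 7892 genes in DMSO at 1 h, 9 to 10 and 7287 to 8167 at 4 h, 8 to 9 and 5500 to 6545 under MM401 at 1 h, and 5 to 7 and 5491 to 6977 at 4 h. For 4 h against 1 h it gave 5 to 6 and 4875 to 5317 in DMSO and 6 to 8 and 4624 to 5383 under MM401. MM401 against DMSO gave 0 to 3 and 0 to 1272 with water, 0 to 0 and 0 to 2 with bicuculline for 1 h and 0 to 0 and 0 to 0 for 4 h. MM401 water 4 h against 1 h gave 0 to 0 and 14 to 140, and the interaction 0 to 5 and 0 to 1551 at 4 h and 0 to 1 and 0 to 97 at 1 h. Signs turned within the ranges of *Adcy1* in DMSO at 1 h (-0.06 to 0.10), *Pde4a* under MM401 at 4 h (-0.06 to 0.04), *Pde4b* in MM401 4 h against 1 h (-0.0015 to 0.13) and the 4 h interactions of *Crem* (-0.04 to 0.07) and *Adcy1* (-0.16 to 0.02).

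With the replicate number as a block, MM401 against DMSO with bicuculline for 1 h gave 4 genes, and of the 10 genes the block changed only *Pde4d* for 4 h against 1 h under MM401 (-0.25, adjusted p = 0.0435). Libraries with the same number, in groups of 3 libraries, had deviations that correlated by over 0.1 in 19 of 45 cases, with a median of 0.0913. All 3 were over 0.1 (0.11 to 0.254) between DMSO with water for 4 h and MM401 with water for 1 h, which were not compared directly, and in no pair of groups that was.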
